A study of Mus musculus with 4 samples.

Results

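The 8 genes described here encode myeloid C-type lectin receptors, surface proteins of macrophages, neutrophils and dendritic cells that bind sugars, lipids or the contents of dead cells. They are Clec4d, Clec4e, Clec4n, Clec5a, Clec7a, Clec9a, Clec10a and Clec12a. They were found by symbol in the count file of WT colon 1, and their identifiers were looked up in the other files. All 8 were among the 19308 genes listed for every library, and all 8 passed the filter on low counts that left 16956 genes for testing. Transcripts were counted by RNA sequencing of total RNA from mouse colonic mucosa in 2 Itch KO and 2 WT libraries. The Itch KO mice lacked Itch, the gene of a HECT-type E3 ubiquitin ligase, and the labels give the WT genotype as C57BL/6. The strain background of the knockout, the ages, any treatment and the number of animals in a library are not stated in the labels. The labels mark all 4 samples with the state inflammation, while the extraction protocol describes only the knockout mucosa as inflamed. The comparison asks how these receptor transcripts differ between Itch KO mucosa and WT mucosa. If only the knockout mucosa was inflamed, genotype and inflammation cannot be told apart in these libraries.

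Most of these receptors signal through a tyrosine-based activation motif that recruits the kinase SYK. Clec4d, Clec4e and Clec4n proteins borrow that motif from the Fc receptor gamma chain (Fcer1g), and CLEC5A borrows it from DAP12 (Tyrobp), whereas dectin-1 (Clec7a) and DNGR-1 (Clec9a) carry a single-tyrosine version in their own tails. Downstream of SYK, the adaptor CARD9 with BCL10 and MALT1 activates NF-kB and the transcription of inflammatory cytokines. CLEC12A instead carries an inhibitory motif that recruits phosphatases. In the gut these receptors are known for sensing fungi, bacteria and dying cells.

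Itch itself had 11.9 and 13.4 CPM (counts per 1000000 counts, scaled by library size with TMM factors) in the Itch KO libraries, against 203 and 183 CPM in the WT libraries, so the labels held for the targeted gene. Library totals over the 19308 genes were between 8181193 and 12199709 counts. The libraries of 1 group were not alike. The 7 markers of squamous epithelium, a tissue outside the colonic mucosa, summed to 27.3 and 34.3 CPM in Itch KO replicates 1 and 2, against 749 and 14 CPM in WT replicates 1 and 2. Neutrophil markers also differed between the WT libraries, as given further on. For the receptors and the gene lists, counts at an unadjusted p that moved by over 1.5 times when 1 library was left out are given or described beside them. The labels do not say whether the 2 libraries of a group are different animals, and the p-values therefore cover the spread between libraries, which may be technical. A fit with 1 library left out has a single library in 1 group. Its p-values, calls and counts measure no spread in that group.

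Promoters from RefSeq (GRCm38.p6) are shown for the 3 receptor genes with the largest fold changes, Clec4e, Clec4d and Clec5a, and for Clec9a, the gene with the smallest. They were chosen after their values were seen. Each window runs from 250 bases before to 50 bases after the annotated start and is written 5′ to 3′ on the gene's strand, with capitals marking GAGGAA on either strand. That motif is the core of the site bound by PU.1, the transcription factor of myeloid cells. The windows are chr6:123289822-123290121 on the minus strand for Clec4e, chr6:123261857-123262156 on the plus strand for Clec4d, chr6:40585756-40586055 on the minus strand for Clec5a and chr6:129408612-129408911 on the plus strand for Clec9a.
Clec4e: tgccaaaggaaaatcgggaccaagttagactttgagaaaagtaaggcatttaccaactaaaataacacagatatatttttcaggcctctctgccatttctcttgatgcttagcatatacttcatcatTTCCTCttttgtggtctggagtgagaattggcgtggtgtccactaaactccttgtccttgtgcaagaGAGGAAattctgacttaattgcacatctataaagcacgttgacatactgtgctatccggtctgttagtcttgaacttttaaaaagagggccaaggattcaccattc
Clec4d: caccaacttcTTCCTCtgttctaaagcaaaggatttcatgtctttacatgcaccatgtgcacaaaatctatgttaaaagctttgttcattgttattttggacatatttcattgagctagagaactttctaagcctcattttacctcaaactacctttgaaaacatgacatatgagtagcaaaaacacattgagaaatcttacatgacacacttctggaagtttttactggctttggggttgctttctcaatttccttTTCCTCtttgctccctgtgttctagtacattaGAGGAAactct
Clec5a: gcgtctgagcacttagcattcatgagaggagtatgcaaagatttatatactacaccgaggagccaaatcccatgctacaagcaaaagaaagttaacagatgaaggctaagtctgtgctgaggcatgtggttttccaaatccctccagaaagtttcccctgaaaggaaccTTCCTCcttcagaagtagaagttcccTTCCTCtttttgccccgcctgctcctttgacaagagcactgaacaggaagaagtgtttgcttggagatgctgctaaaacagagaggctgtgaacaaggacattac
Clec9a: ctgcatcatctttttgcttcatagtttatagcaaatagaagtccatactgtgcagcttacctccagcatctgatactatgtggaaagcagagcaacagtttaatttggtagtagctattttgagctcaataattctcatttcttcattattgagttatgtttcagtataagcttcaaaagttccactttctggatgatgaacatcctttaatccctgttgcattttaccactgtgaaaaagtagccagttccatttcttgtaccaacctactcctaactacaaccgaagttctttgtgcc

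GAGGAA was present on either strand in the windows of Clec4d, Clec4e, Clec5a, Clec7a and Clec12a, which is 5 of the 6 members in the RefSeq promoter table, and it was not in the Clec9a window. Of all 32851 promoter windows in the table, 28.3% held it. Counted from 0 at the start site, the first base of each match lay at -123 and -56 in Clec4e, at -240, 7 and 39 in Clec4d and at -81 and -55 in Clec5a. TTGCNNAA, a C/EBP pattern, matched in Clec4e at -66 and in Clec12a at -140, and 10.8% of windows held it. TTGCNNNAA, its longer form, matched only in Clec9a at -225, against 9.56% of windows, and TGANTCA, the AP-1 pattern, only in Clec12a at -213, against 7.81%. The NF-kB pattern was in none of the 6 members' windows and in 50.8% of all windows. In these windows no match of 1 pattern overlapped a match of another. A match describes letters only, and binding was not measured. Clec4n and Clec10a have no entry in the table.

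Of the 8 receptors, 6 were higher in both Itch KO libraries than in both WT libraries, and Clec9a and Clec10a overlapped between the groups. Among the 16956 tested genes, 30.0% were likewise higher in both. The largest differences were those of Clec4e, Clec4d and Clec5a, each with a log2 fold change above 3, a size that 2.42% of tested genes reached, and 6 members reached a log2 fold change of 1, beside 9.49% of tested genes. The median log2 fold change of the 8 members was 2.06, beside 0.01 over all tested genes. In edgeR's quasi-likelihood test 0 members passed a Benjamini-Hochberg adjusted p of 0.05, and 0% of all tested genes did. At an unadjusted p below 0.05, 5 members were higher and 0 lower, where 10.2% of all genes were higher and 9.52% lower. limma voom also called 0 members after adjustment, with 5 higher at an unadjusted p below 0.05, beside 10.2% of genes higher and 9.29% lower. DESeq2, run beside it, called 4 of the 8 higher, Clec5a, Clec4d, Clec7a and Clec4n, beside 5.47% of the 16298 genes for which it gave an adjusted p. Without Itch KO replicate 2 the count of members at an unadjusted p below 0.05 was 1 in edgeR and DESeq2 called 0, while without WT replicate 1 DESeq2 called 6. An exact permutation test over 2 against 2 libraries cannot give a two-sided p below 0.333. In bulk tissue, more cells of a type and more RNA per cell cannot be told apart.

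**Figure D1:**
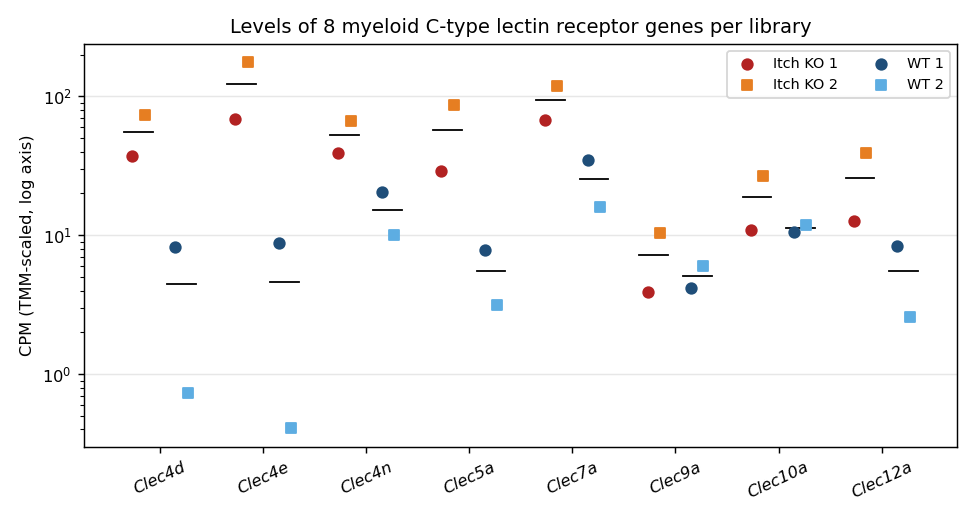
CPM of each receptor gene on a log axis, with Itch KO libraries left of WT libraries; each point is 1 library and each bar the mean of 2. The Itch KO points of Clec4d, Clec4e, Clec4n, Clec5a, Clec7a and Clec12a all lie above their WT points, and those of Clec9a and Clec10a overlap them.

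Clec4e encodes Mincle, which recognizes mycobacterial cord factor and the nuclear protein SAP130 released by dying cells. It had 68.7 and 176 CPM in Itch KO replicates 1 and 2, against 8.84 and 0.407 CPM in WT replicates 1 and 2. Both Itch KO values stood above both WT values, and the lower of them was 7.77 times the higher WT value. The WT libraries differed 21.7-fold from each other, on 83 and 5 counts. Its log2 fold change was 4.77 (SE 1.35, edgeR adjusted p = 0.189, DESeq2 adjusted p = 0.057). It was 8.21 without WT replicate 1 and 3.79 without WT replicate 2 in edgeR. In DESeq2 it was 8.23 without WT replicate 1, where the remaining WT library had 5 counts, and 3.76 without WT replicate 2. With 1 WT library left, the spread between the WT libraries does not enter the fit, so p-values of these fits are not given for Clec4e.

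Clec4d, its neighbour, encodes MCL, which pairs with Mincle at the cell surface. It had 37.5 and 73.3 CPM in Itch KO libraries, against 8.2 and 0.732 CPM in WT libraries. The groups did not overlap, and here too WT replicate 1 was the higher WT library, by 11.2-fold. On the log2 scale the difference was 3.65 (SE 1.18, edgeR adjusted p = 0.219, DESeq2 adjusted p = 0.00291). It was 6.24 without WT replicate 1 and 2.76 without WT replicate 2. Clec4d lost its DESeq2 call only without Itch KO replicate 2 (log2 fold change 3.06), a fit with a single Itch KO library.

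Clec4n encodes dectin-2, a receptor for the mannans of fungal cell walls. It was at 39.1 and 66 CPM in Itch KO libraries, against 20.4 and 10 CPM in WT libraries. The groups were apart, with the lower Itch KO value 1.91 times the higher WT value. This gave a log2 fold change of 1.79 (SE 0.48, edgeR adjusted p = 0.184, DESeq2 adjusted p = 0.0131). DESeq2 lost the call of Clec4n without WT replicate 2 (log2 fold change 1.33) or Itch KO replicate 2 (1.36). It kept the call without either other library.

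Clec5a encodes MDL-1, a DAP12-coupled receptor of monocytes and neutrophils. It had 29.2 and 86.2 CPM in Itch KO libraries, against 7.88 and 3.17 CPM in WT libraries. All Itch KO values were above all WT values, and Itch KO replicate 2 was 2.95 times replicate 1. Its log2 fold change of 3.39 (standard error 0.77) had the smallest adjusted p of the 8 members in both tools (edgeR adjusted p = 0.154, DESeq2 adjusted p = 7.1e-05). The log2 fold change was 2.41 without Itch KO replicate 2, the only library whose removal ended the DESeq2 call.

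Clec7a encodes dectin-1, the receptor for fungal beta-glucans. It was at 67.8 and 119 CPM in Itch KO libraries, against 34.9 and 16.1 CPM in WT libraries. The groups did not overlap. In WT mucosa it had the highest CPM of the 8 genes, and in Itch KO mucosa it came next to Clec4e. Clec7a had a log2 fold change of 1.88 (SE 0.50, edgeR adjusted p = 0.179, DESeq2 adjusted p = 0.00429). DESeq2 lost the call of Clec7a without WT replicate 2 (log2 fold change 1.39) or Itch KO replicate 2 (1.40). It kept the call without either other library. The GENCODE M21 annotation types this gene as a polymorphic pseudogene.

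Clec12a encodes MICL, an inhibitory receptor that binds uric acid crystals. It had 12.6 and 39.3 CPM in Itch KO libraries, against 8.41 and 2.6 CPM in WT libraries. The groups did not overlap, but Itch KO replicate 1 was only 1.5 times WT replicate 1. For Clec12a the log2 fold change was 2.24 (SE 0.88, edgeR adjusted p = 0.272, DESeq2 adjusted p = 0.079). It was 3.34 without WT replicate 1 and 1.21 without Itch KO replicate 2.

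Clec9a and Clec10a are receptors of dendritic cells and of macrophages. DNGR-1, the product of Clec9a, binds the actin filaments of dead cells on type 1 dendritic cells. Clec9a was at 3.92 and 10.4 CPM in Itch KO libraries, against 4.15 and 6.02 CPM in WT libraries. Itch KO replicate 1 was the lowest of the 4 libraries and Itch KO replicate 2 the highest. Its log2 fold change was 0.49 (SE 0.67, edgeR adjusted p = 0.703, DESeq2 adjusted p = 0.838), and without Itch KO replicate 2 it was -0.36. MGL1, the product of Clec10a, binds terminal galactose and N-acetylgalactosamine on macrophages and type 2 dendritic cells. Clec10a had 10.9 and 26.7 CPM in Itch KO libraries, against 10.6 and 11.8 CPM in WT libraries. Itch KO replicate 1 lay between the WT values, and replicate 2 stood above all others. Clec10a had a log2 fold change of 0.75 (SE 0.56, edgeR adjusted p = 0.491, DESeq2 adjusted p = 0.614), and without Itch KO replicate 2 it was -0.03. These misses do not show equal levels, and whether the fold changes of Clec9a and Clec10a differ from those of the other 6 was not tested.

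**Figure D2:**
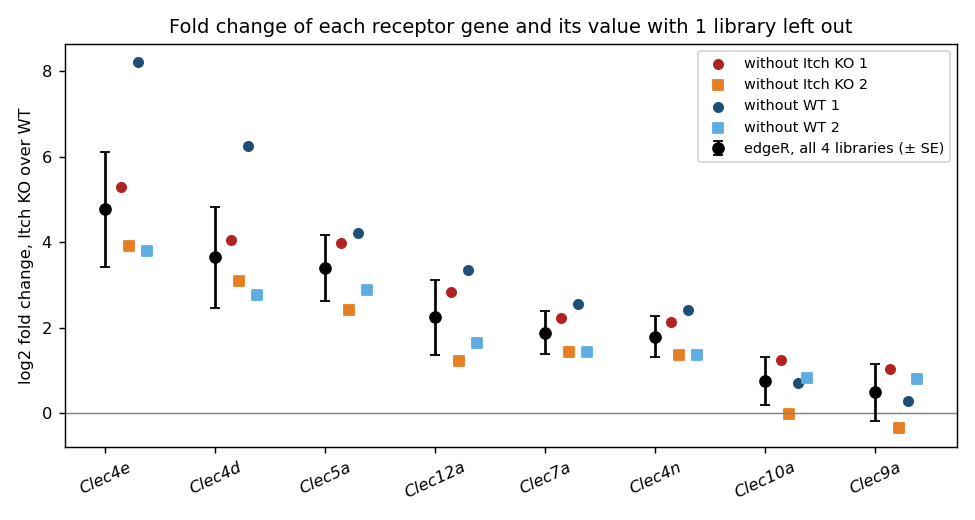
Log2 fold change of Itch KO over WT for each receptor gene, in order of size: black points with bars are edgeR estimates over all 4 libraries with their standard errors, and coloured points are the estimates with 1 library left out. Clec4e (4.77) moves to 8.21 without WT replicate 1, and Clec9a (0.49) and Clec10a (0.75) move to -0.36 and -0.03 without Itch KO replicate 2.

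All 8 receptors were higher in Itch KO replicate 2 than in Itch KO replicate 1. The ratios ran from 1.69 for Clec4n to 3.11 for Clec12a with a median of 2.5, where the median of all tested genes was 0.969 and 14.7% of genes exceeded 2. In the WT pair, 6 of the 8 were higher in replicate 1, by 2.04-fold (Clec4n) to 21.7-fold (Clec4e), while Clec9a and Clec10a were at 0.69 and 0.903 of their replicate 2 level. Over all tested genes 6.68% had a WT ratio above 2.

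The summed level of the 8 genes was 270 and 597 CPM in the Itch KO libraries, against 103 and 50.8 CPM in the WT libraries. The make-up of that sum differed too. Clec4e supplied 25.5% and 29.4% of it in Itch KO libraries and 8.54% and 0.8% in WT libraries. Clec10a supplied 4.05% and 4.47% in Itch KO libraries and 10.3% and 23.2% in WT libraries, and Clec9a 1.45% and 1.74% against 4.01% and 11.8%. Clec7a held a share of 25.1% and 20% in Itch KO libraries and 33.7% and 31.7% in WT libraries.

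**Figure D3:**
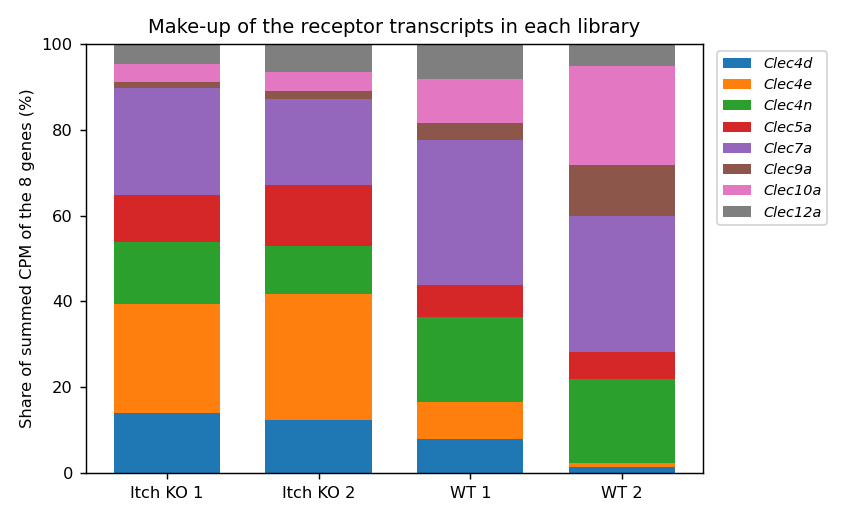
Percent of the summed CPM of the 8 receptor genes that each supplied, with 1 bar per library and Itch KO libraries left of WT. The Clec4e share is 25.5% and 29.4% in Itch KO libraries and 8.54% and 0.8% in WT libraries.

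Per kilobase of exon, on which genes can be compared, Clec4n ranked first in all 4 libraries, with a mean of 37 ± 13.4 CPM per kb in Itch KO and 10.7 ± 5.2 in WT mucosa (SD, n = 2 each). Clec7a at 35.5 ± 13.8 and Clec4d at 34.6 ± 15.8 CPM per kb in Itch KO mucosa were within that spread of Clec4n. Clec4e at 24.6 ± 15.2 and Clec5a at 15 ± 10.5 followed, and these neighbours also lay within their spread. Clec10a (6.49 ± 3.85), Clec12a (4.69 ± 3.41) and Clec9a (2.18 ± 1.39) were lowest in Itch KO mucosa. In WT mucosa Clec7a stood at 9.67 ± 5.04 CPM per kb, Clec10a at 3.87 ± 0.279 and Clec4d at 2.79 ± 3.3. Clec9a at 1.54 ± 0.401, Clec5a at 1.44 ± 0.867, Clec12a at 0.996 ± 0.743 and Clec4e at 0.931 ± 1.2 were lowest there (SD, n = 2 each) and lay within their spread of each other. Exonic length was the union of annotated exons, so rarely used exons lower these values. In Itch KO replicate 2, Clec4n, Clec4d and Clec7a had 451, 445 and 439 counts per kb of exon, at percentiles 95.6, 95.3 and 95.1 of the tested genes.

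Of the 8 genes, 7 lie on chromosome 6 (GRCm38) and Clec10a on chromosome 11 (70156197 to 70170834, plus strand). Among the 19308 shared genes, Clec4n, Clec4d and Clec4e lie side by side between 123229843 and 123289870, a span of 60 kb with no other. Their log2 fold changes were 1.79, 3.65 and 4.77 in that order, and the differences between them were not tested. Of the shared genes, a span of 130 kb from 129342691 to 129472779 holds Clec12a, Clec12b, Clec1b, Clec9a, Clec1a and Clec7a in that order. The log2 fold changes were 2.24 for Clec12a and 1.88 for Clec7a at its ends, and 1.64 for Clec1b (SE 0.78, edgeR adjusted p = 0.329), 0.49 for Clec9a and 0.15 for Clec1a, a lectin known from endothelium (SE 0.72, edgeR adjusted p = 0.92), between them. The differences between these genes were not tested. Clec1b, which encodes the platelet receptor CLEC-2, had 1.23 and 2.99 CPM in Itch KO libraries, against 0.958 and 0.407 CPM in WT libraries. Clec12b did not pass the filter. Clec5a lies apart, from 40574894 to 40585821 on the minus strand. Annotated exons of Clec1b and Clec9a share 184 bases on the same strand, 5.59% of the exonic length of Clec9a, where reads could not be assigned to 1 of the genes. No other member shared exonic bases with another gene.

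Genes with the most similar profile were named by the distance between log2 CPM profiles over the 4 libraries, each centred on its mean, as a description of 4 points. The nearest to Clec4d was Cxcl1, a neutrophil-attracting chemokine, at 22.3 and 48.3 CPM in Itch KO and 5.11 and 0.325 CPM in WT libraries (distance 0.17), followed by Sirpb1b (0.58). The nearest to Clec4e were Csf3, the granulocyte growth factor (0.46), and Serpina3f (0.60). Fcgr2b, the inhibitory Fc receptor for IgG, was nearest to Clec4n (0.08), at 88.7 and 139 CPM in Itch KO and 43.8 and 22.2 CPM in WT libraries, and Tfec, a transcription factor of macrophages, was nearest to Clec5a (0.07). The next after them were Tnni3 for Clec4n (0.13) and Pira2 for Clec5a (0.21). Tnni3 (0.09) and Tnfaip2 (0.15) were nearest to Clec7a, Hdac9 (0.08) and Clec2l (0.10) to Clec9a, and Syde1 (0.07) and Usp35 (0.08) to Clec10a. Adam8, a metalloprotease of myeloid cells, lay at a distance of 0.22 from Clec12a. Among the 8 themselves the closest profiles were those of Clec4n and Clec7a (0.13) and of Clec9a and Clec10a (0.37), and the most distant those of Clec4e and Clec9a (6.07).

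Of 17 adaptor and signalling genes that these receptors use, 13 were higher in both Itch KO libraries than in both WT libraries, beside 30.0% of tested genes. All 17 were tested. At an unadjusted p below 0.05 in edgeR, 9 were higher and 0 lower, beside 10.2% and 9.52% of all tested genes. After adjustment 0 passed in edgeR, and the median log2 fold change was 0.61. DESeq2 called 7 of them higher. Without Itch KO replicate 2 the counts were 5 in edgeR and 0 in DESeq2, and DESeq2 called 3, 4 and 3 without Itch KO replicate 1, WT replicate 1 and WT replicate 2. Card9, the adaptor downstream of SYK, had 21.2 and 49.6 CPM in Itch KO libraries, against 4.9 and 3.33 CPM in WT libraries (log2 fold change 3.10, SE 0.58, edgeR adjusted p = 0.131). Syk was at 258 and 250 CPM in Itch KO and 157 and 133 CPM in WT libraries, Lyn, a Src-family kinase, at 145 and 169 against 86.5 and 73.9, and Vav1, an exchange factor of blood cells, at 80.8 and 120 against 35.6 and 45.1. The shared chain Fcer1g was at 47.5 and 59.4 CPM in Itch KO and 25.7 and 18.1 CPM in WT libraries. Tyrobp, the partner of CLEC5A, was at 46.7 and 50.9 CPM against 26.3 and 17.8 CPM. Card9, Fcer1g, Tyrobp, Syk, Lyn and Vav1 were among the 13 that did not overlap between groups. Card9, Syk, Lyn and Vav1 were named for their small p. Prkcd, the kinase between SYK and CARD9, had the highest mean CPM on the list over the 4 libraries, although Syk was above it in both Itch KO libraries. It overlapped at 221 and 198 CPM in Itch KO and 233 and 190 CPM in WT libraries. Downstream of CARD9, log2 fold changes were 0.24 for Bcl10, 0.61 for Malt1, 0.13 for Nfkb1, 0.49 for Rel and 0.43 for Rela. Among these, only Rela had an unadjusted p below 0.05 in edgeR.

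Of 6 phosphatase and brake genes, 2 were higher and 1 lower at an unadjusted p below 0.05 (median 0.25). DESeq2 called the same numbers, and 1 higher with any 1 library left out. Inpp5d, the lipid phosphatase SHIP1, had 113 and 161 CPM in Itch KO and 47.3 and 44.6 CPM in WT libraries. Ptpn6, the phosphatase SHP-1 that inhibitory receptors recruit, had 108 and 129 against 57.6 and 70.7 CPM. Cbl, an E3 ubiquitin ligase that acts on SYK, was lower, at 36.2 and 27.7 CPM in Itch KO and 95.2 and 70.8 CPM in WT libraries (log2 fold change -1.38, SE 0.24, edgeR adjusted p = 0.129, DESeq2 adjusted p = 0.000617). Leaving out WT replicate 1 ended the DESeq2 call of Cbl (log2 fold change -1.15), as did leaving out Itch KO replicate 2 (-1.20). Leaving out either other library did not. Dusp5 was at 32.7 and 59.1 against 34.3 and 25.2 CPM, and Ptpn11, the phosphatase SHP-2, at 182 and 191 CPM in Itch KO and 213 and 193 CPM in WT libraries.

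Of 12 cytokine and mediator genes that these receptors are known to induce, and that other inflammatory signals induce as well, 11 were higher at an unadjusted p below 0.05, with a median of 3.65, and DESeq2 called 9. Without Itch KO replicate 2 the counts were 3 in edgeR and 1 in DESeq2, with a median of 2.61. With the replicate number as a block edgeR had 5, and with a filter at a mean of 5 CPM, which tests fewer genes, 7. Tnf was at 58.4 and 89.7 CPM in Itch KO and 12.9 and 6.34 CPM in WT libraries, Ccl3, a chemokine of myeloid cells, at 15.1 and 50.5 against 2.98 and 0.895, and Cxcl2, which attracts neutrophils, at 45.1 and 86.1 against 4.68 and 0.407. Ptgs2, the inducible cyclooxygenase, had 84.4 and 257 CPM in Itch KO and 30.9 and 17.1 CPM in WT libraries. Il12b overlapped, at 0.981 and 23.4 CPM in Itch KO and 0.532 and 1.46 CPM in WT libraries. As for 6 of the receptors, the libraries ranked Itch KO replicate 2, Itch KO replicate 1, WT replicate 1 and WT replicate 2 for 10 of the 12 genes. The exceptions were Il10 and Il12b, which were higher in WT replicate 2 than in WT replicate 1. For Csf2 and Il23a the order of WT replicates 1 and 2 rests on few counts, 2 and 2 for Csf2 and 7 and 8 for Il23a. The share of all tested genes with this order was not counted. Marker sums of several cell types had it too, as given further on, so it does not single out these genes.

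Other C-type lectins split. A list of 26 further lectins was drawn up as myeloid, but it also holds Cd72 of B cells, Clec1a of endothelium and Clec1b of platelets. Of its genes 20 were tested, 8 of them, Cd72 included, were higher and 0 lower at an unadjusted p below 0.05, and the median was 0.89, with DESeq2 calling 5. In edgeR the count was 1 without Itch KO replicate 2, 4 without WT replicate 1, 3 without WT replicate 2 and 5 with the replicate block. In DESeq2 it was 1 without Itch KO replicate 2, 2 without WT replicate 2 and 3 without Itch KO replicate 1. Clec4a1 had 32.5 and 58.4 CPM in Itch KO and 17.6 and 12.5 CPM in WT libraries, and Clec4a3 28 and 43.9 against 14.3 and 7.64. Cd72, an inhibitory lectin of B cells, had 50.3 and 56.8 CPM against 10 and 11.6, and Cd209e had 1.59 and 1.24 against 0.213 and 0.325. Ly75, the endocytic receptor DEC-205, was at 93.7 and 65.2 CPM in Itch KO and 101 and 101 CPM in WT libraries. Of 19 C-type lectins of other cells, 1 was higher and 1 lower at an unadjusted p below 0.05 (median 0.19). Clec3b, the secreted protein tetranectin, was the lower, at 8.83 and 15.5 CPM in Itch KO and 48 and 34.5 CPM in WT libraries (DESeq2 adjusted p = 0.0045). DESeq2 lost that call without WT replicate 1 (log2 fold change -1.51), WT replicate 2 (-2.01) or Itch KO replicate 1 (-1.43). It kept the call without Itch KO replicate 2 (-2.23). Klrg1, a receptor of NK and T cells, was the higher, at 4.05 and 6.29 CPM in Itch KO and 1.38 and 1.71 CPM in WT libraries. With 1 library left out, edgeR had 0 to 2 of these genes higher and 1 to 3 lower. Clec2h had the highest mean CPM on that list, at 179 and 127 CPM in Itch KO and 131 and 137 CPM in WT libraries, Clec2e was at 32.5 and 31.2 against 36.4 and 106, and Clec2g at 1.35 and 2.99 against 0.852 and 0.244. Of 4 genes of reported ligands, 1 was lower at an unadjusted p below 0.05 and 0 higher (median 0.30). With 1 library left out, edgeR had 0 to 2 higher and 0 to 1 lower. Sap130, the gene of the Mincle ligand, had 80.8 and 71.5 CPM in Itch KO and 109 and 109 CPM in WT libraries (log2 fold change -0.52, SE 0.13, edgeR adjusted p = 0.162). Vim, Anxa1 and Lgals9 were at 135 and 161, 132 and 117, and 138 and 114 CPM in Itch KO libraries, against 137 and 95, 142 and 62.8, and 103 and 98.1 CPM in WT libraries.

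**Figure D4:**
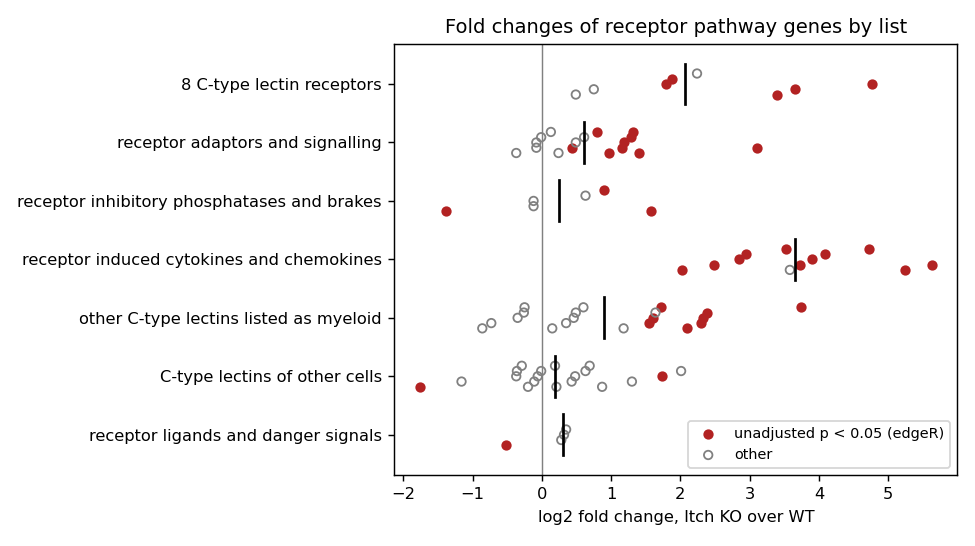
Log2 fold change of Itch KO over WT for every tested gene of each list, with 1 point per gene, filled where edgeR's unadjusted p was below 0.05, and a bar at the list's median; vertical scatter within a list only separates points. The medians are 2.06 for the 8 receptors, 0.61 for adaptors, 0.25 for brakes, 3.65 for induced cytokines, 0.89 for other lectins listed as myeloid, 0.19 for lectins of other cells and 0.30 for ligands.

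Markers of myeloid cells, which carry these receptors, also differed between the libraries. The 15 neutrophil markers summed to 634 and 1127 CPM in Itch KO libraries, against 278 and 26.9 CPM in WT libraries, and 10 of 15 were higher at an unadjusted p below 0.05 (median 3.85), with 7 to 15 when 1 library was left out, the most without WT replicate 1. Csf3r, the receptor for the granulocyte growth factor, had 105 and 187 CPM in Itch KO and 31.3 and 3.74 CPM in WT libraries, and Mmp9, a gelatinase of neutrophil granules, 84.1 and 182 against 11.3 and 5.37. The neutrophil marker Stfa2l1 was at 0 in WT replicate 2. Ltf overlapped between groups, at 58 and 82.8 CPM in Itch KO and 126 and 2.28 CPM in WT libraries. So did Ly6g, at 37.2 and 27.9 against 35.9 and 1.22 CPM. The other 13 of the 15 were higher in both Itch KO libraries than in both WT libraries, beside 30.0% of tested genes. The order of the libraries in the neutrophil sum was that of Clec4d, Clec4e, Clec4n, Clec5a, Clec7a and Clec12a: Itch KO replicate 2, Itch KO replicate 1, WT replicate 1, WT replicate 2. The sums of the macrophage, type 2 dendritic cell, pan-leukocyte and B cell markers had that order too, so it does not single out neutrophils. The 8 monocyte markers summed to 687 and 1068 CPM in Itch KO libraries, against 747 and 346 CPM in WT libraries, with 4 higher (median 1.30). Fn1 and Vcan had the highest mean CPM of that list, at 240 and 336 and at 69.6 and 156 CPM in Itch KO libraries, against 448 and 186 and 105 and 37.2 CPM in WT libraries. The 11 macrophage markers summed to 702 and 949 CPM in Itch KO libraries, against 586 and 533 CPM in WT libraries, with 5 higher and 1 lower (median 0.72). With Itch KO replicate 2 left out 2 were higher, with WT replicate 2 left out 3 were, and 0 were lower with either Itch KO library left out. Of these, Csf1r was at 154 and 208 CPM in Itch KO and 89.8 and 61.1 CPM in WT libraries, and Mertk, the lower one, at 62.9 and 54.2 against 88.7 and 165.

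For dendritic cells, the 8 type 1 markers summed to 430 and 448 CPM in Itch KO libraries, against 295 and 361 CPM in WT libraries, with 3 higher (median 0.31), and 1 lower without Itch KO replicate 2. Irf8 and Tlr3 had the highest mean CPM over the 4 libraries, at 187 and 184 and at 91.7 and 68.6 CPM in Itch KO libraries, against 115 and 127 and 83.5 and 119 CPM in WT libraries. Wdfy4, needed for cross-presentation and named after its values were seen, was above Tlr3 in Itch KO replicate 2 and had the smallest p of that list, at 89 and 114 CPM in Itch KO and 26.1 and 28.2 CPM in WT libraries (log2 fold change 1.90, SE 0.19, edgeR adjusted p = 0.122, DESeq2 adjusted p = 7.91e-09). Xcr1, a chemokine receptor that defines those cells with Clec9a, had 3.8 and 7.11 CPM in Itch KO and 4.26 and 6.67 in WT libraries. Its order of libraries within the Itch KO pair and within the WT pair was that of Clec9a. Irf8, Tlr3, Itgae (29.2 and 16.5 CPM in Itch KO) and Cadm1 (43.9 and 41 CPM in WT) of that list were ordered otherwise. The 8 type 2 markers, of which 7 were tested, summed to 288 and 466 CPM in Itch KO libraries, against 153 and 130 CPM in WT libraries, with 4 higher (median 1.21). Sirpa had 129 and 205 CPM in Itch KO and 88.5 and 56.3 CPM in WT libraries, and Itgax 57.5 and 87.3 against 30.8 and 30.7, while Cd207 was at 0 in all but WT replicate 1. Pan-leukocyte markers, led by Ptprc at 199 and 243 against 76 and 72.5 CPM and Laptm5 at 174 and 200 against 86.3 and 66 CPM, summed to 645 and 759 CPM in Itch KO libraries, against 261 and 221 CPM in WT libraries. All 5 were higher at an unadjusted p below 0.05 (median 1.57). The part of each cell type in the receptor levels was not tested.

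Lists of cells that are not the main carriers differed as well. B cell markers had a median log2 fold change of 3.80 (4 of 4 higher at an unadjusted p below 0.05), T cell markers 1.57 (4 of 5, but 1 without Itch KO replicate 2 and 2 without Itch KO replicate 1 or WT replicate 1) and mast cell and eosinophil markers 3.16 (5 of 8 tested, and 2 lower without WT replicate 1). Cd79b, a chain of the B cell receptor, had 79.6 and 80.4 CPM in Itch KO libraries, against 8.41 and 6.51 CPM in WT libraries. The T cell genes Lck and Cd2 had 48.6 and 64.9 and 29.8 and 39.3 CPM in Itch KO libraries, against 13.6 and 29.9 and 5.22 and 5.45 CPM in WT libraries. Kit, the stem cell factor receptor, overlapped at 80.3 and 122 CPM in Itch KO and 103 and 208 CPM in WT libraries, and Mcpt1, a mast cell protease, had 107 and 85.9 against 6.49 and 11.5. Markers of colon epithelium, which check the labelled tissue, summed to 1509 and 1129 CPM in Itch KO libraries, against 1514 and 1241 CPM in WT libraries, with 0 of 8 at an unadjusted p below 0.05 in either direction (0 after adjustment, and 0 in DESeq2), and 1 lower without Itch KO replicate 1. Vil1 and Cdh17 led them, at 293 and 213 and 291 and 213 CPM in Itch KO libraries, against 279 and 240 and 266 and 230 CPM in WT libraries. Fibroblast and smooth muscle markers summed to 1208 and 1668 CPM in Itch KO libraries, against 1882 and 1221 CPM in WT libraries. Of these 6 genes, 1 was lower at an unadjusted p below 0.05. That count fell without WT replicate 1 or Itch KO replicate 1 and rose without Itch KO replicate 2. The lower gene was Myh11, the smooth muscle myosin, at 198 and 270 CPM in Itch KO and 589 and 392 CPM in WT libraries, and Col3a1 was at 374 and 468 against 437 and 271. WT replicate 1 was the library with the squamous markers, among them Krt13 at 11.3 and 16.7 CPM in Itch KO and 122 and 0.813 CPM in WT libraries and Krt5 at 0.858 and 3.09 against 138 and 0.244, and it was also the higher WT library for the 6 receptors that separated the groups. Without that library the median log2 fold change of the 8 was 2.95. The 6 receptors lay above both WT libraries, so leaving 1 of these out could not lower their number. Leaving out WT replicate 1 removes the higher WT value of each of the 6, so their fold changes had to rise. The part of squamous tissue in the receptor values of WT replicate 1 was not tested.

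**Figure D5:**
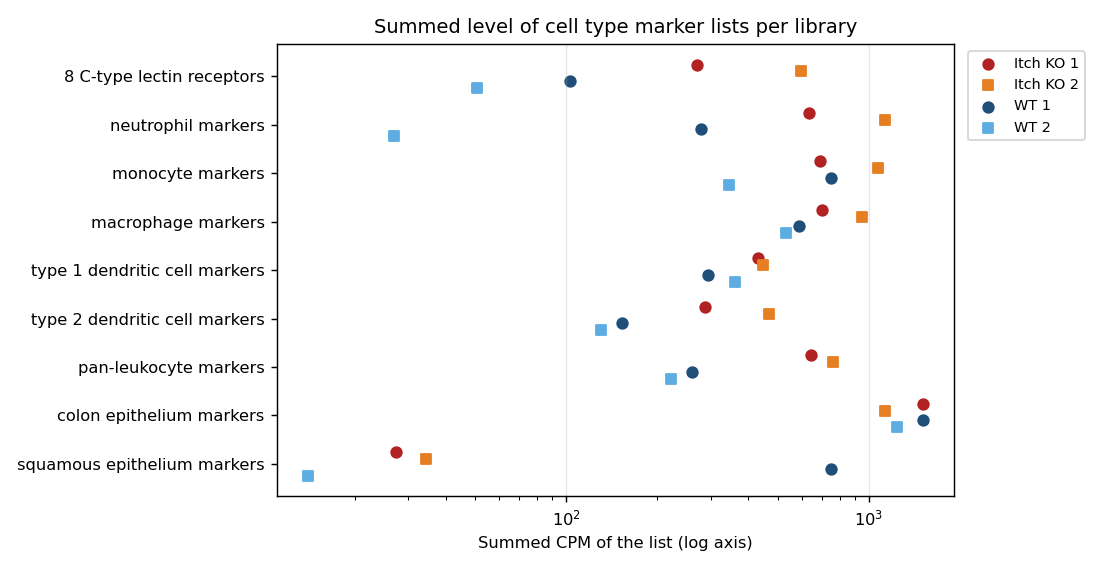
Summed CPM of each marker list on a log axis, with 1 point per library and Itch KO points above WT points within a row. The neutrophil sum is 634 and 1127 CPM in Itch KO libraries and 278 and 26.9 CPM in WT libraries, and the squamous sum reaches 749 CPM in WT replicate 1.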

How the data were processed

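Libraries for sequencing were made from colonic mucosa RNA by Illumina protocols, per the labels. Each of the 4 files deposited by the authors holds unnormalized counts for 1 library. Tools listed in the submitters' processing notes are HTSeq 0.6.1, SAMtools 0.1.19, TopHat2 and CASAVA 1.8.2, with the builds mm10 and GRCm38, and the strand setting is not given in the sources used here. The file of WT replicate 1 lists 19308 genes, while 39179 genes stand in each of the other 3, along with summary lines. Tests used the 19308 shared genes, where 97.26% to 97.72% of counts in the longer files fall. Reads outside genes were 18.2% to 23% and ambiguous reads 2.67% to 3.03% of the totals in those 3 files and entered neither library sizes nor tests.

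The main test was edgeR 4.0.16 (R 4.3.3), quasi-likelihood, robust, TMM, filterByExpr with a minimum count of 10, group as the only term, two-sided, adjusted over all 16956 genes at 0.05. With 2 residual degrees of freedom, edgeR's biological coefficient of variation was 34.8%. DESeq2 1.42.0 and limma 3.58.1 (voom) were alternatives. Scripts were tested on simulated data. The members and gene lists were chosen with earlier results of these data known, so lists are given as counts and medians with no list test. The named-gene rule took the 8 members, Itch, the 4 pathway genes of smallest p and the gene of highest mean level per pathway list, the pair of highest mean level in each cell type list, and the nearest pair by profile. Fcer1g, Tyrobp, Il10, Il12b, Il23a, Csf2, Ltf, Ly6g, Stfa2l1, Xcr1, Wdfy4, Cd207 and the genes between cluster members were named after their values were seen. So were Bcl10, Malt1, Nfkb1, Rel, Rela, Itgae and Cadm1. Symbols were matched by gene ID where the files use older ones, and 19106 of the identifiers had a position in GENCODE M21. Clec4b2 and Clec4f, and protein sequences, were not analysed here. Some genes that the naming rule takes are not reported here.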

Additional observations from a re-analysis of the deposited data

How the results depend on the processing

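In edgeR 0 members passed an adjusted p of 0.05 with all 4 libraries, under RLE or upper quartile scaling, with no filter or a mean of at least 5 CPM, with robust=FALSE, with each library left out, with limma voom and with the legacy=FALSE estimator, which was added after seeing the data. DESeq2 called 4 members, and its counts with 1 library left out, also added after seeing the data, ran from 0 (without Itch KO replicate 2) to 6 (without WT replicate 1). The count of members higher at an unadjusted p below 0.05, 5 of 8 in edgeR, ran from 1 without Itch KO replicate 2 to 6 without WT replicate 1 or without Itch KO replicate 1. The median log2 fold change of the members ran from 1.40 without Itch KO replicate 2 to 2.95 without WT replicate 1, and the count of members with separated groups from 6 to 8. Leaving out a library cannot lower that count. Over all pathway lists, 31 genes were higher at an unadjusted p below 0.05 in edgeR, with 13 (without Itch KO replicate 2) to 29 (without Itch KO replicate 1) when 1 library was left out, and 12 to 28 in DESeq2. Leave-one-out counts for single lists and for marker lists were added after seeing the data. Each fit with a library left out has 1 group of a single library, so its calls measure no spread in that group. The fold changes of Clec9a and Clec10a turned negative without Itch KO replicate 2, in edgeR (-0.36 and -0.03) and in DESeq2 (-0.38 and -0.04). The cause was not tested.

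The groups share replicate numbers, but the labels do not say that a number marks shared animals or days. The deviations of same-numbered libraries from their group means correlated at 0.0481 across genes. With the replicate number as a block, edgeR gave 1 member at an unadjusted p below 0.05 and 0 after adjustment, and 20 pathway genes higher at an unadjusted p below 0.05. The block leaves 1 residual degree of freedom. Tools that return no per-library level (DESeq2, limma voom, the block) gave no count of separated groups. Depth limits the low values: in WT replicate 2 Clec4e rested on 5 counts and Clec4d on 9, and 3 counts correspond to 0.244 to 0.368 CPM.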
